A study of Rattus norvegicus with 40 samples.

Results

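The members described here are the nuclear genes of the mitochondrial respiratory chain, complexes I to V, together with the assembly factors and gene copies that share their names. They were chosen by symbol, as every gene model with a symbol that starts with Nduf, with Sdh followed by a, b, c or d, with Uqcr, with Cox4 to Cox8, or with Atp5. The rule found 94 of the 31677 gene models, of which 44 carried a complex I name, 6 a complex II name, 9 a complex III name, 18 a complex IV name and 17 a complex V name. By role, 76 were subunits (35, 4, 7, 16 and 14 of complexes I to V), 8 were assembly factors and 7 were second copies or short loci. The remaining 3 were Cox7a2l, a factor that joins complex IV to complex III in supercomplexes, and Atp5s and Atp5sl. Atp5s and Atp5sl are called related genes here for their ATP synthase names only, and RefSeq lists them as Dmac2l and Dmac2. Ndufa4 and its isoform Ndufa4l2 were counted with complex IV, where the Ndufa4 protein resides. The rule reads names and no measured value.

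The Dahl salt-sensitive (SS) rat develops high blood pressure when it eats salt. RNA of T cells was sequenced in 40 libraries, each from a pool of 3 rats, in 10 groups of 4 libraries. For 5 groups of rats there was a circulating and a kidney T cell group. These were SS/MCW rats on LS chow at 7 weeks of age, SS/MCW rats on LS chow at 10 weeks, SS/MCW rats on HS chow for 3 weeks at 10 weeks of age, and SS/CRL rats on LS and on HS chow in the same way at 10 weeks. LS and HS are the low-salt and high-salt chows, every rat carried the SS background, and the labels give neither sex nor how the T cells were isolated. Whether the 4 pools of a group were independent beyond holding separate rats is not stated, so the authors' p-values measure the spread between these pools. The labels give the circulating and kidney libraries of a group of rats the same pool numbers, but do not say that the same rats gave both. The kidney over circulating calls are used as deposited, with no pairing added here.

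The respiratory chain sits in the inner mitochondrial membrane. Complexes I and II pass electrons from NADH and succinate to ubiquinone, complex III passes them on to cytochrome c, and complex IV reduces oxygen. Complexes I, III and IV pump protons, and complex V, the ATP synthase, uses the gradient to make ATP. Kidney tubules, above all the proximal tubule and the thick ascending limb, are among the tissues richest in mitochondria, whereas resting T cells hold few mitochondria and raise respiration on activation. The chain also holds subunits encoded by the mitochondrial genome, which were not analysed here.

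Levels are FPKM, fragments per kilobase of transcript scaled to the mapped fragments, which are scaled to gene length, so genes can be compared with each other. The authors' tables give a single FPKM per group, so no standard deviation over the 4 libraries can be shown, and library depth is unknown. A member is said to have risen or fallen, or to be called, only where Cuffdiff tested it and its q, as deposited by the authors, lay below 0.05. Each of the 15 tables was scaled on its own, and the same group's value for a member differed between tables by a median factor of 1.10 to 1.15. Sets of 5 FPKM values are given in the order SS/MCW LS at 7 weeks, SS/MCW LS, SS/MCW HS, SS/CRL LS and SS/CRL HS, and come from the 5 tables that compare kidney with circulating cells.

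The label of the kidney samples was checked against 15 T cell markers, none of which was listed at 0 in any group. Their summed level was 5281 to 6531 FPKM in circulating cells and 240.4 to 922 FPKM in kidney cells, and all 15 were lower in kidney in all 5 comparisons. The 11 proximal tubule markers summed to 2782 to 11614 FPKM in kidney cells and to 0.169 to 1.06 FPKM in circulating cells, where 1 to 6 of them were listed at 0. The same count was 0 to 3 for the thick ascending limb list and 1 to 3 for the collecting duct list. The 7 markers of the thick ascending limb and distal tubule summed to 1226 to 14446 against 31.9 to 42.3 FPKM, and the 7 collecting duct markers to 278 to 560.0 against 0.123 to 0.256 FPKM. Macrophage (148 to 819.7 against 49.9 to 68.8), erythroid (403 to 3960.4 against 59.3 to 193) and endothelial (104 to 193 against 28.8 to 32.3) marker sums were higher in kidney cells too. The libraries labelled kidney T cells thus held less T cell marker RNA and more tubule marker RNA than the circulating ones. The part of the tubule RNA in the respiratory chain results was not tested, and in bulk RNA fewer cells of a type and less RNA per cell cannot be told apart.

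The chain was higher in kidney than in circulating cells as a whole. Of the 94 members, 75 rose in all 5 kidney over circulating comparisons and 2 fell in all 5, against 18.4% and 13.6% of the gene models tested in all 5. Among the 76 subunits, 68 rose in all 5 and none fell in all 5: 35 of 35 in complex I, 4 of 4 in complex II, 6 of 7 in complex III, 10 of 16 in complex IV and 13 of 14 in complex V. In SS/MCW LS rats at 7 weeks 82 members were called higher and 2 lower, against 32.9% and 23.9% of all gene models tested. The counts were 78 and 2 in SS/MCW LS rats at 10 weeks (background 26.6% and 17%), 78 and 2 in SS/MCW HS rats (30.6% and 18.4%), 81 and 2 in SS/CRL LS rats (31.5% and 22%), and 82 and 3 in SS/CRL HS rats (30.6% and 20.3%). In the plot of kidney over circulating ratios, 74 of the 76 subunits had the higher value in kidney in all 5 groups of rats. With a normal p computed from the deposited test statistic in place of the deposited p, 41 members were called higher and 0 lower in all 5, so the calls of Cox7a2l and Ndufaf4 in all 5 rest on the deposited p. The share of all gene models called with the normal p is not given here, so these counts have no background. Some members passed the authors' filter on low values only in some tables, and 90 of the 94 were tested in all 5.

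**Figure D1:**
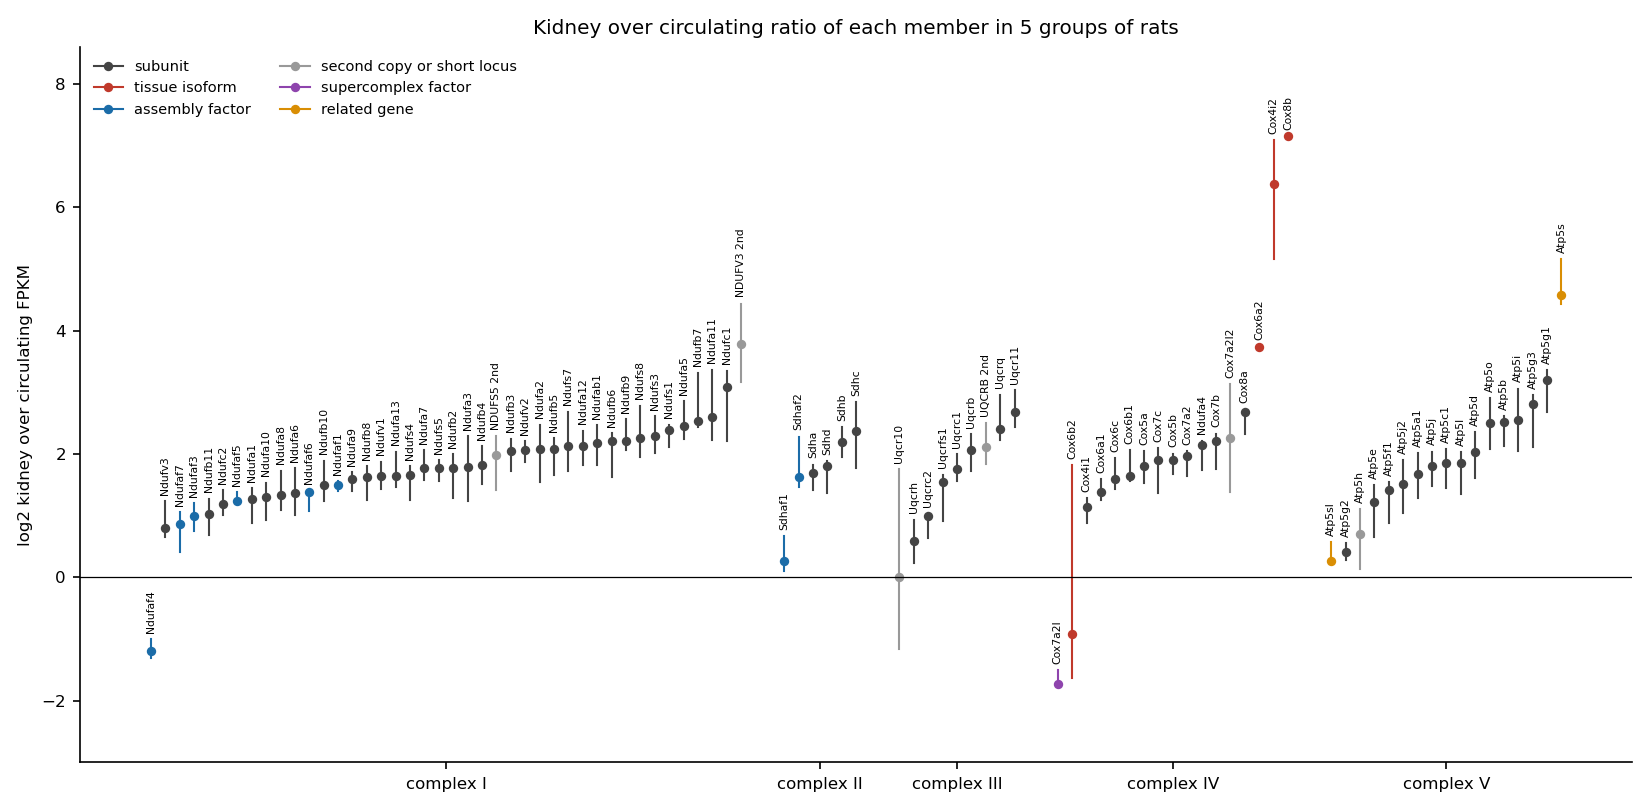
Each point is the median log2 kidney over circulating FPKM ratio of a member over the 5 groups of rats (fewer for tissue isoforms listed at 0 in a group), and the line runs from the lowest to the highest of the 5, with members sorted within each complex and coloured by role. The plot draws 91 members with at least 1 FPKM in a group and a value above 0 in both tissues; Cox7a2l and Ndufaf4 lie below 0 in all 5 groups of rats, and Atp5g1 and Ndufc1 lie above the other subunits of complexes V and I.

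By level, subunit genes took 6.18% to 8.38% of all FPKM in the kidney groups and 1.42% to 1.61% in the circulating groups. The median log2 kidney over circulating ratio of all subunits was 1.56 to 2.04 over the 5 groups of rats, where gene models with at least 5 FPKM in both tissues had medians of -0.23 to -0.15. The middle of the 5 medians was 1.90 for complex I (SD 0.20 over the 5 groups of rats), 2.01 for complex II (SD 0.22), 1.72 for complex III (SD 0.17), 1.90 for complex IV (SD 0.17) and 1.95 for complex V (SD 0.24). The gaps between complexes were of the size of the spread between groups of rats, and their order changed from group to group. Complex II ranked 1 or 2 among the 5 complexes in every group of rats, and complex III ranked 3 to 5. All 5 complexes had their smallest ratio in SS/MCW HS rats, from 1.47 for complex V to 1.61 for complex IV, with FPKM as deposited. At equal totals this held for complexes II and V only: complexes I and IV were smallest in SS/CRL LS rats (2.094 and 2.095) and complex III in SS/MCW LS rats at 10 weeks (1.94). Several marker sums were at an extreme in the SS/MCW HS kidney group. Its T cell sum was the highest, at 922 FPKM against 240.4 to 511 in the other kidney groups, and its macrophage sum was too, at 819.7 against 148 to 354. Its proximal tubule (2782 against 3117 to 11614), collecting duct (278 against 345 to 560.0), endothelial (104 against 109 to 193) and erythroid (403 against 613 to 3960.4) sums were the lowest. Its thick ascending limb and distal tubule sum, at 6434.5 FPKM, was at neither extreme, with 1226 to 14446.5 in the other kidney groups. The part of these cells in the smaller ratio was not tested. For scale, 101 to 104 cytosolic ribosomal protein genes with values in both tissues had median log2 ratios of -2.57 to -1.57 and so lay on the other side of 0 from the respiratory chain.

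**Figure D2:**
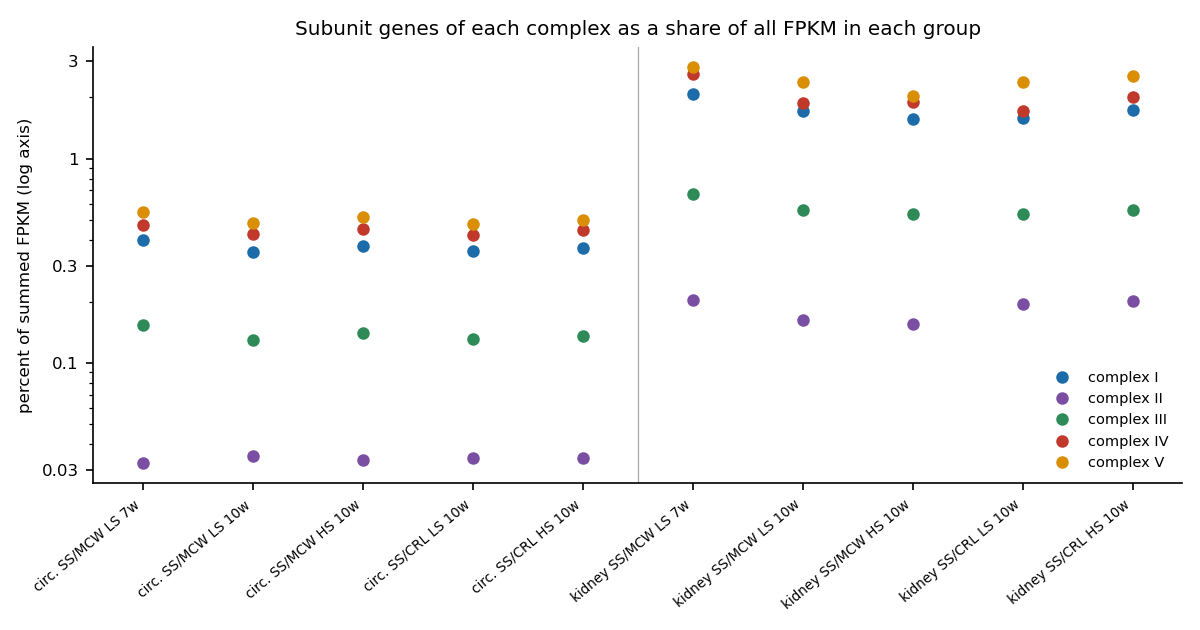
Points give the summed FPKM of the subunit genes of each complex as a percent of all FPKM in that group, on a log axis, for the 5 circulating and 5 kidney groups. Every complex lies higher in each kidney group than in each circulating group, with complex V between 2.02% and 2.82% in kidney and between 0.478% and 0.548% in circulating cells.

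Levels also varied between groups of rats within a tissue. In kidney 52 of the 76 subunits were lowest in SS/MCW HS rats and 21 in SS/CRL LS rats, and 39 were highest in SS/MCW LS rats at 7 weeks. In circulating cells 45 of the 72 subunits considered were lowest in SS/CRL LS rats and 27 in SS/MCW LS rats at 10 weeks, and 61 were highest at 7 weeks. The summed FPKM of all gene models had the same extremes in circulating cells. It was highest at 7 weeks (1.05e+06) and lowest in SS/CRL LS rats (852568), next to SS/MCW LS rats at 10 weeks (854626). In kidney the sum was lowest at 7 weeks (649102), with 698343 in SS/MCW HS rats. The same counts over all gene models are not given here. These orders set values from separately scaled tables side by side, and the tests within a tissue follow the account of the complexes.

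Promoter windows show what some of these genes hold near their start. RefSeq windows of 250 bases before to 50 bases after the start (build GRCr8) were found for 77 of the 87 members that are no copies. A set of 4 letter strings was searched on both strands, and none of them contains another: GCGCATGC for NRF1, CCGGAAGT for GABPA, AAGATGGC for YY1 and CAAGGTCA for ESRRA, transcription factors known for their part in nuclear genes of mitochondria. At least 1 of the 4 was in 40.3% of the members' windows, in 12.9% of those of 19005 protein-coding genes and in 11.4% of those of all 27457 genes with a window. NRF1 letters were in 13.0% of the members' windows against 3.32% of protein-coding windows, GABPA letters in 10.4% against 5.12%, YY1 letters in 19.5% against 4.08% and ESRRA letters in 5.19% against 1.35%. The members' windows were also richer in CpG, with a median of 20 CpG against 12 over protein-coding genes, and 2 of the strings (NRF1 and GABPA) hold CpG, so the shares are not adjusted for CpG content. The YY1 string holds the letters ATG and the windows run 50 bases past the start, so a translation start can match it. The YY1 share is not adjusted for this. A match here is a description of letters and not of a bound site.

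The windows of 6 members are printed, each 5′ to 3′ on the gene's own strand with matched letters in capitals. Among them are the 3 genes for subunit c of ATP synthase, which differ most in ratio within a set of genes for the same protein. Cox8a is another and holds matches to 3 of the strings. The others are Cox7a2l, which fell in every kidney over circulating comparison, and Sdhc, which was called between rat types in HS kidneys. The windows are chr10:81523296-81523595 for Atp5g1, chr7:135678169-135678468 for Atp5g2, chr3:79220615-79220914 for Atp5g3, chr1:213833574-213833873 for Cox8a and chr13:86097976-86098275 for Sdhc, all on the minus strand, and chr6:16936324-16936623 for Cox7a2l on the plus strand.
Atp5g1: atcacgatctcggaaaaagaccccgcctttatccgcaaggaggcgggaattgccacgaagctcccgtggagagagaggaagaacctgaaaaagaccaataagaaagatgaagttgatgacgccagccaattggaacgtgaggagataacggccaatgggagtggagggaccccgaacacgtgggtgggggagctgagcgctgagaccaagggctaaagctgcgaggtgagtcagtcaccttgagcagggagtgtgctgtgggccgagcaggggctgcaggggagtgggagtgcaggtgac
Atp5g2: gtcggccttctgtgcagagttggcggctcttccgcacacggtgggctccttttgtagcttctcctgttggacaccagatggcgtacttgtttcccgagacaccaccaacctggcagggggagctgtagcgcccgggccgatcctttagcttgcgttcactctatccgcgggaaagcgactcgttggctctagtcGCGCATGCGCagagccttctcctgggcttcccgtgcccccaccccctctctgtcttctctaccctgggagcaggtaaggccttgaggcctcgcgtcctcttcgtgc
Atp5g3: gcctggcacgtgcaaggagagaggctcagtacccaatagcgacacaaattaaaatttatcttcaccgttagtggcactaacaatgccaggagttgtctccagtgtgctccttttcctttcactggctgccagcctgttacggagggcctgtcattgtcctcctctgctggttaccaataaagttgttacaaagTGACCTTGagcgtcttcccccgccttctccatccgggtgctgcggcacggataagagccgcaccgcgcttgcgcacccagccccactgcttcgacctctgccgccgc
Cox8a: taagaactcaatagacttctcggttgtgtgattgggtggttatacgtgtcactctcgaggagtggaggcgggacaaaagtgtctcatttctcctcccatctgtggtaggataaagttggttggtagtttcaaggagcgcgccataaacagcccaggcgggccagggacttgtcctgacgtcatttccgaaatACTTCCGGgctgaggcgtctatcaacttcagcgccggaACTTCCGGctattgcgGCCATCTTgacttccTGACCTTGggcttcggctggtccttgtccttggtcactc
Sdhc: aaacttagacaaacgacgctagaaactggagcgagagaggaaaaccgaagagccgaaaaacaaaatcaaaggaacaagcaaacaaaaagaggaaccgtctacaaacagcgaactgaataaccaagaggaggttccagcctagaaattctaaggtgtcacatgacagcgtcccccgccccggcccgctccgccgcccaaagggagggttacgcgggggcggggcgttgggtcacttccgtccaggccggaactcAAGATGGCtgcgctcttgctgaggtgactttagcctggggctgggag
Cox7a2l: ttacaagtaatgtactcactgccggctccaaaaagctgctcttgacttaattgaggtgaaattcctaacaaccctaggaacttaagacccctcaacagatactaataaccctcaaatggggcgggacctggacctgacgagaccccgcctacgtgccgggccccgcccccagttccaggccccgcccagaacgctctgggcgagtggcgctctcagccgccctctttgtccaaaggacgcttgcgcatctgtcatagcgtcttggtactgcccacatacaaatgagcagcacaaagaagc
The capitals in Atp5g2 are NRF1 letters, present on both strands of the same stretch, and those in Atp5g3 are ESRRA letters on the opposite strand. Cox8a holds 2 GABPA matches, 1 YY1 match and 1 ESRRA match, and Sdhc 1 YY1 match that begins at base 4 after the start. No capitals stand in the windows of Atp5g1 and Cox7a2l.

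Complex I takes electrons from NADH. The core subunits Ndufs1, Ndufs3, Ndufs7, Ndufs8, Ndufv1 and Ndufv2 belong to the arm that takes up the electrons, and each rose in kidney in all 5 comparisons (q at most 0.00334). Their median log2 ratios ran from 1.65 for Ndufv1, which binds NADH, to 2.38 for Ndufs1, the large iron-sulfur subunit. Ndufs1 stood at 105, 94.8, 86.0, 108 and 102 FPKM in kidney and at 19.2, 18.2, 19.8, 19.3 and 21.7 FPKM in circulating cells, so the tissues did not overlap and it was the least abundant of them in both. Ndufs7, the one with the highest kidney level, held 455 to 641 FPKM in kidney against 99.5 to 153 FPKM in circulating cells. Ndufs8 (279 to 373 against 49.4 to 75.9 FPKM), Ndufs3 (249 to 323 against 47.2 to 66.1), Ndufv2 (335 to 429.8 against 79.9 to 107) and Ndufv1 (228 to 268 against 68.1 to 85.6) lay between them.

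Of the 28 accessory subunits of complex I, which surround the core, all rose in all 5 comparisons. The largest ratio was that of Ndufc1, a small membrane arm subunit, at 302, 367, 242, 425 and 382 FPKM in kidney and 53.9, 40.5, 52.0, 41.6 and 45.0 FPKM in circulating cells (median fold 8.49). Ndufa11 and Ndufb7 followed, with median folds of 6.10 and 5.81. The smallest was that of Ndufv3, a subunit of the NADH module, at 81.7 to 107 FPKM in kidney and 43.5 to 54.4 FPKM in circulating cells (median fold 1.74). Ndufa1, a membrane arm subunit encoded on the X chromosome, had the highest median kidney level of the complex, 603 to 918 FPKM against 269 to 381 FPKM.

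Complex II is succinate dehydrogenase, the enzyme shared with the tricarboxylic acid cycle, and all 4 of its subunits are nuclear. All rose in all 5 comparisons with q at most 0.000221. Sdhc, a membrane anchor, had both the highest median kidney level and the largest ratio: 427, 370.3, 286, 499 and 481 FPKM in kidney against 82.2, 72.6, 83.3, 69.4 and 76.2 FPKM in circulating cells (median fold 5.19). Its lowest kidney value was in SS/MCW HS rats and its highest in the SS/CRL groups. The flavoprotein subunit Sdha had the smallest ratio, 193 to 241 FPKM against 66.2 to 74.2 FPKM (median fold 3.24). The iron-sulfur subunit Sdhb (390.1 to 462 against 85.1 to 100.3 FPKM) and the other anchor Sdhd (213 to 272 against 70.2 to 83.2 FPKM) lay between. In circulating cells the 4 subunits were close to each other in level, at 66.2 to 100.3 FPKM.

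Of the 7 complex III subunits 6 rose in all 5 comparisons. Uqcrq, a small subunit beside cytochrome b, had the highest kidney level, 1502 to 1709 FPKM against 219 to 324 FPKM. Uqcr11, another small subunit, had the largest ratio, 664 to 892 FPKM against 102 to 161 FPKM (median fold 6.45). The core protein Uqcrc1 (276 to 332 against 74.0 to 97.5 FPKM) and the Rieske iron-sulfur protein Uqcrfs1 (204 to 297 against 87.6 to 109 FPKM) rose by median folds of 3.39 and 2.93. Uqcrh, the hinge protein that helps dock cytochrome c, was the exception. It stood at 969, 997, 854, 834 and 898 FPKM in kidney and at 822, 521, 662, 549.9 and 595 FPKM in circulating cells, and it rose in 3 comparisons (SS/MCW LS at 10 weeks, q = 0.0264, SS/CRL LS, q = 0.00173, and SS/CRL HS, q = 0.00116). In SS/MCW LS rats at 7 weeks and SS/MCW HS rats its q was 0.242 and 0.206. It was the most abundant complex III subunit in circulating cells and not in kidney, where Uqcrq was higher in all 5 groups.

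Complex IV, cytochrome c oxidase, had 11 ubiquitous subunits and 5 tissue isoforms among the members. Of the 11, 10 rose in all 5 comparisons. Cox6c had the highest median kidney level, 1549.9 to 2211 FPKM against 511 to 723 FPKM. Cox8a had the largest ratio, at 1965, 1665, 1439.6, 1628 and 1839 FPKM in kidney against 309, 251, 288, 254 and 284 FPKM in circulating cells (median fold 6.42). Cox4i1, a regulatory subunit that binds ATP, had the smallest, 1573 to 2106 FPKM against 657 to 952 FPKM (median fold 2.21), and was the most abundant complex IV subunit in circulating cells. Cox5b (952 to 1213 against 258 to 358 FPKM) and Cox6a1, the ubiquitous form of subunit 6a (944 to 1532 against 373 to 544 FPKM), rose by median folds of 3.73 and 2.60. Cox6b1 had ratios like its neighbours (median fold 3.14, 950.1 to 1467 against 303 to 439 FPKM) but was called in 3 comparisons only, with q of 0.281 in SS/MCW LS at 10 weeks and 0.0582 in SS/MCW HS rats. Its locus in the files spans 423 kb, and it is 1 of 12 members with a locus over 100 kb, which can take in neighbouring genes.

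The 5 tissue isoforms of complex IV were near 0 in circulating cells except for Cox6b2. Cox4i2, the isoform of subunit 4 tied to low oxygen, was 1.43 to 3.37 FPKM in kidney and at most 0.0409 FPKM in circulating cells, and was called in SS/CRL HS rats only. The muscle forms Cox6a2 (1.32 to 2.86 FPKM in kidney, listed at 0 in 4 of 5 circulating groups) and Cox8b (0.449 to 7.59 FPKM, also at 0 in 4 of 5) were called higher in 4 and 2 comparisons. Ndufa4l2 was listed at 0 in all 5 circulating groups and in both SS/CRL kidney groups, and was 1.49 to 4.64 FPKM in the SS/MCW kidney groups, with calls in 2 comparisons. Cox6b2, the testis form, was 1.87 to 3.22 FPKM in circulating cells and 0 to 6.57 FPKM in kidney, overlapped between the tissues, and fell in SS/CRL HS rats, where kidney was listed at 0. No isoform passed 7.59 FPKM in these 5 comparisons, whereas Cox8a, the ubiquitous form of subunit 8, was at least 251 FPKM in every group.

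Cox7a2l, which holds complexes III and IV together in supercomplexes, fell in all 5 comparisons while Cox7a2, the subunit it resembles, rose in all 5. Cox7a2l stood at 139, 141.0, 156, 119 and 128 FPKM in kidney and at 471, 401, 465, 399 and 423 FPKM in circulating cells, a 3.30-fold lower median in kidney with q at most 0.000221. Cox7a2 stood at 759, 556, 568, 508 and 626 FPKM in kidney and at 184, 142, 181, 132 and 159.8 FPKM in circulating cells (median fold 3.91). Every circulating group had more Cox7a2l than Cox7a2, by 2.57 to 3.03 times, and every kidney group had more Cox7a2, by 3.63 to 5.46 times. Over the same comparisons the T cell markers had median log2 ratios of -5.10 to -2.80, against -1.76 to -1.51 for Cox7a2l, and their part in its fall was not tested. The short locus Cox7a2l2 (chromosome 14, 52813654 to 52814107 in rn5) rose in all 5 and did not follow Cox7a2l.

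Complex V, the ATP synthase, held the member with the highest median in each tissue. Atp5i, a small membrane subunit, had the highest kidney level of the whole chain, at 3072, 3379, 2094, 3089 and 2810 FPKM against 699, 405, 504, 439 and 479.9 FPKM in circulating cells. The catalytic subunit beta, Atp5b, was 1766 to 2285 FPKM against 334 to 404 FPKM (median fold 5.72), and the subunit alpha, Atp5a1, 725 to 1019 FPKM against 241 to 297 FPKM (median fold 3.20). In circulating cells Atp5e, the small epsilon subunit of the central stalk, was the highest of the chain, with a median of 902 FPKM. Of the 14 subunits 13 rose in all 5 comparisons.

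The genes Atp5g1, Atp5g2 and Atp5g3 encode the same mature protein, subunit c of the rotor ring, with different import sequences, and they differed from each other in ratio. Atp5g1 (chromosome 10, 83700816 to 83703744) stood at 951, 907, 689, 836 and 906 FPKM in kidney against 120.2, 88.6, 108, 81.6 and 98.7 FPKM in circulating cells, the largest ratio of any subunit with at least 5 FPKM in kidney (median fold 9.18). Atp5g3 (chromosome 3, 67289967 to 67292590) stood at 1784, 1541, 1165, 1612 and 1722 FPKM against 311, 220.3, 268, 208 and 245 FPKM (median fold 6.99). Both rose in all 5 comparisons with q at most 0.000221, and neither overlapped between the tissues.

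Atp5g2 (chromosome 7, 142056431 to 142064809) stood at 735, 656, 676, 593 and 666 FPKM in kidney against 576, 446, 557, 437 and 503 FPKM in circulating cells, and was called in the SS/CRL groups only (q = 0.0284 on LS and 0.0274 on HS). Its q in the SS/MCW groups was 0.0753, 0.0950 and 0.304, and its median fold was 1.32. Atp5g2 supplied 57.2% to 60.2% of the summed c subunit FPKM in circulating cells and 19.5% to 26.7% in kidney. Atp5g3 supplied 28.6% to 30.9% in circulating cells and 46.0% to 53.0% in kidney, and Atp5g1 11.2% to 11.9% and 27.2% to 29.2%. The sum of the 3 rose by 1.44 to 2.06 log2 units, within the range of the other complex V subunits, and the shares of the tissues did not overlap for any of the 3 genes.

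**Figure D3:**
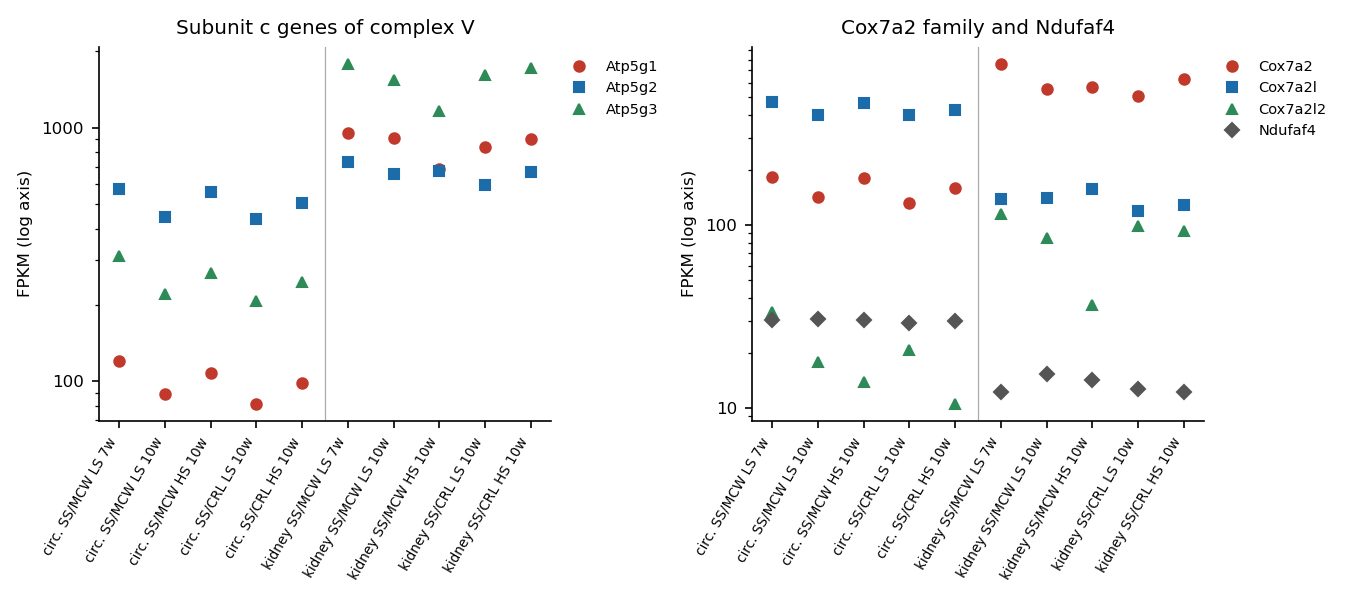
Points give FPKM on a log axis in each circulating and kidney group for the 3 subunit c genes (left) and for Cox7a2, Cox7a2l, the short locus Cox7a2l2 and Ndufaf4 (right). Atp5g2 is the highest of the subunit c genes in all 5 circulating groups and Atp5g3 in all 5 kidney groups, and the order of Cox7a2 and Cox7a2l is reversed between the tissues.

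The 8 assembly factors moved less than the subunits, with a middle median log2 ratio of 1.10 (0.97 to 1.22 over the groups of rats), and 4 of 8 rose in all 5: Ndufaf1, Ndufaf5, Ndufaf6 and Sdhaf2. Ndufaf4, an assembly factor of complex I, fell in all 5. It stood at 12.2, 15.4, 14.2, 12.7 and 12.2 FPKM in kidney and at 30.2, 30.8, 30.3, 29.0 and 29.996 FPKM in circulating cells, a 2.28-fold lower median (q at most 0.00480). Ndufaf1, another assembly factor of complex I, was 7.01 to 7.57 FPKM in kidney and 2.45 to 2.70 FPKM in circulating cells, so these 2 factors moved in opposite directions in every group of rats. Ndufaf3 (37.9 to 49.96 against 18.4 to 24.9 FPKM), Ndufaf7 (7.62 to 11.0 against 5.11 to 5.83 FPKM) and Sdhaf1 (67.1 to 87.2 against 52.4 to 75.1 FPKM, overlapping between tissues) were called in none of the 5, with q of at least 0.181 in each case.

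Among the related genes, Atp5s rose in 4 of 5 comparisons (16.3 to 20.2 against 0.563 to 0.816 FPKM, median fold 23.9, q = 0.0550 in SS/CRL LS). Atp5sl rose in SS/MCW LS rats at 7 weeks only (31.2 to 38.7 against 26.0 to 28.1 FPKM). The 7 second copies and short loci are uncertain, because reads of near-identical copies can be split among them. Of these, the NDUFS5 and UQCRB copies and Cox7a2l2 rose in all 5. The NDUFV3 copy, a 39.2 kb locus on chromosome 13, rose in 4 (142 to 270.1 against 11.8 to 16.0 FPKM), where the Ndufv3 locus on chromosome 20 had a median fold of 1.74. The NDUFB4 copy, Uqcr10 and Atp5h were at most 3.22 FPKM and were not called in any of the 5, and the main loci of the last 2 were not analysed here.

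Other mitochondrial genes were counted from lists outside the naming rule. Over all gene models tested, 18.4% rose and 13.6% fell in all 5 comparisons. Of 17 gene models for electron carriers and ubiquinone synthesis, 9 rose in all 5 comparisons and 0 fell, among them Cyc1 of complex III (240.3 to 341 against 59.7 to 73.1 FPKM) and the main locus of cytochrome c, Cycs (347 to 604 against 41.5 to 50.5 FPKM). Of 14 tricarboxylic acid cycle genes, 13 rose in all 5, from Idh3a (median log2 ratio 0.90) to Idh2 (5.36), and the other, citrate synthase Cs, rose in 1 (81.8 to 107 against 77.1 to 80.8 FPKM). The outer membrane and import list had 5 of 12 risen in all 5 and 0 fallen. Of 30 gene models for assembly factors outside the rule, 12 rose in all 5 and 1, Cox18, fell in all 5. The median log2 ratio of these 30 was 0.49 to 0.83 over the groups of rats, that of the tricarboxylic acid cycle list 1.16 to 1.59 and that of the electron carrier list 1.52 to 2.00.

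Of 16 regulators of mitochondrial genes, 2 rose in all 5 (Peo1, the mitochondrial helicase, and Tefm, an elongation factor) and 3 fell in all 5 (Nrf1, Gabpb1 and Pprc1), shares near the 18.4% and 13.6% of all gene models. Nrf1 was 9.01 to 11.5 FPKM in kidney and 23.6 to 25.7 FPKM in circulating cells. The coactivator Ppargc1a was 15.3 to 22.8 FPKM in kidney and at most 0.0313 FPKM in circulating cells, and was called in 1 comparison. Esrra was 31.4 to 46.7 against 5.88 to 6.94 FPKM and rose in 3. The median log2 ratio of this list was -0.32 to 0.10 over the groups of rats.

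Within circulating cells, 1 member passed the test with salt, although most subunits had a higher value on HS. In SS/MCW rats the subunits were higher on HS by a median of 0.33 log2 units as deposited (0.21 for complex II to 0.34 for complex I), yet 0 members were called by Cuffdiff (background 0.107%) and 24 had an unadjusted p under 0.05 (background 6.37%). The 24 were all higher on HS, and Atp5j2, a membrane subunit of ATP synthase, had the smallest p of them at 642 against 465 FPKM (Cuffdiff q = 0.534). In SS/CRL rats the median was 0.20 and 1 member was called (0.67%), the short locus Cox7a2l2, at 9.54 FPKM on HS and 18.8 FPKM on LS (q = 0.0106), with 15 under the unadjusted p (9.18%), of which 13 were higher and 2 lower on HS. A normal p from the deposited test statistic called 0 members in every comparison within a tissue, where the share of all gene models is not given either.

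These shifts became smaller when each group was scaled to the same total. The summed FPKM of the SS/MCW HS group was 0.25 log2 units above that of its LS group, and the difference was 0.13 in SS/CRL rats. The ribosomal protein genes had medians of 0.33 and 0.17, and genes of at least 100 FPKM in both groups had medians of 0.21 and 0.12. Gene models with at least 5 FPKM in both groups had medians of only 0.07 and 0.05. With each group scaled to the same total, the subunit medians became 0.08 and 0.07. That rescaling called 415 gene models in SS/MCW rats, 2 higher and 413 lower on HS. In SS/CRL rats it called 331, 21 higher and 310 lower. The part of the scale in the subunit shifts was not tested. Complex II then had -0.04 in SS/MCW rats, with 0 of 4 subunits higher on HS, and complexes II and III had -0.01 and -0.03 in SS/CRL rats. Among the marker lists, 3 of the 4 erythroid genes were called higher on HS in SS/CRL rats (median 0.87), where the T cell list had a median of 0.13 and no call. In SS/MCW rats no marker of any list was called, and the erythroid median was 0.30. The part of the erythroid RNA in the subunit values was not tested.

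Between rat types, no member passed the test in circulating cells. On LS the median log2 SS/CRL over SS/MCW ratio of the subunits was -0.04 and on HS -0.18, which became -0.02 and -0.03 at equal totals. Among members with at least 5 FPKM, the largest differences of complexes I, IV and V on LS were Ndufs7 (90.4 in SS/CRL against 104 FPKM in SS/MCW), Cox4i1 (597 against 682 FPKM) and Atp5a1 (219 against 249 FPKM), with q of 1.00 for each. On HS the largest in each were Ndufa3 (102 against 133 FPKM), the short locus Cox7a2l2 (9.25 against 12.6 FPKM) and Atp5e (789 against 959 FPKM), again with q of 1.00. Cuffdiff called 0 members in both (0.541% and 0.241% of all gene models), with 0 and 1 member under an unadjusted p of 0.05 (3.59% and 2.17%). The 1 was the Atp5h short locus on HS, at 0.766 and 1.74 FPKM. On HS 3 of the 4 erythroid genes were called higher in SS/CRL, with a median of 1.02.

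Age gave the most calls of the comparisons within a tissue. In circulating cells of SS/MCW rats on LS chow, 10 members fell from 7 to 10 weeks and none rose, against 0.918% of gene models called lower and 1.94% called in either direction, and 48 of the 88 tested had an unadjusted p under 0.05, all lower at 10 weeks (background 13%). The 10 were Ndufa3, Ndufa11, Ndufa13 and Ndufb3 of complex I, Uqcrh and Uqcr11 of complex III, Cox7c and the short locus Cox7a2l2 of complex IV, and Atp5e and Atp5i of complex V. Atp5i was 630.0 FPKM at 7 weeks and 364 FPKM at 10 weeks (1.73-fold lower, q = 0.00690), and Ndufa3 176 and 104 FPKM (1.69-fold lower, q = 0.00690). Uqcrh, the hinge protein, was 741 and 468 FPKM (1.58-fold lower, q = 0.00690). The other subunits called fell by 1.51-fold (Atp5e) to 1.62-fold (Ndufa11), and Cox7a2l2 by 1.89-fold.

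Subunits of complexes I, III, IV and V had median log2 ratios of -0.47, -0.46, -0.46 and -0.46 from 7 to 10 weeks, while complex II, with 0 of 4 called, had -0.20. The summed FPKM of the groups differed in the same direction, by -0.31, and the ribosomal protein genes had a median of -0.43, with genes of at least 100 FPKM in both groups at -0.24. Gene models with at least 5 FPKM in both groups had a median of only -0.05. At equal totals the medians were -0.16, -0.16, -0.16 and -0.15 for complexes I, III, IV and V and 0.11 for complex II, and 0 members were called when the deposited p-values were carried over to the rescaled ratios. Under that rescaling 13.8% of all gene models were called, 2306 of them higher and 56 lower at 10 weeks. The 10 calls thus hold for FPKM as the authors scaled them. In the same comparison all 4 erythroid markers were lower at 10 weeks, 3 of them called, with a median of -1.69, and their sum was 193 FPKM at 7 weeks and 59.3 FPKM at 10 weeks in the kidney over circulating tables. The T cell list had a median of -0.19 and no call. The part of the erythroid RNA in the age result was not tested.

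**Figure D4:**
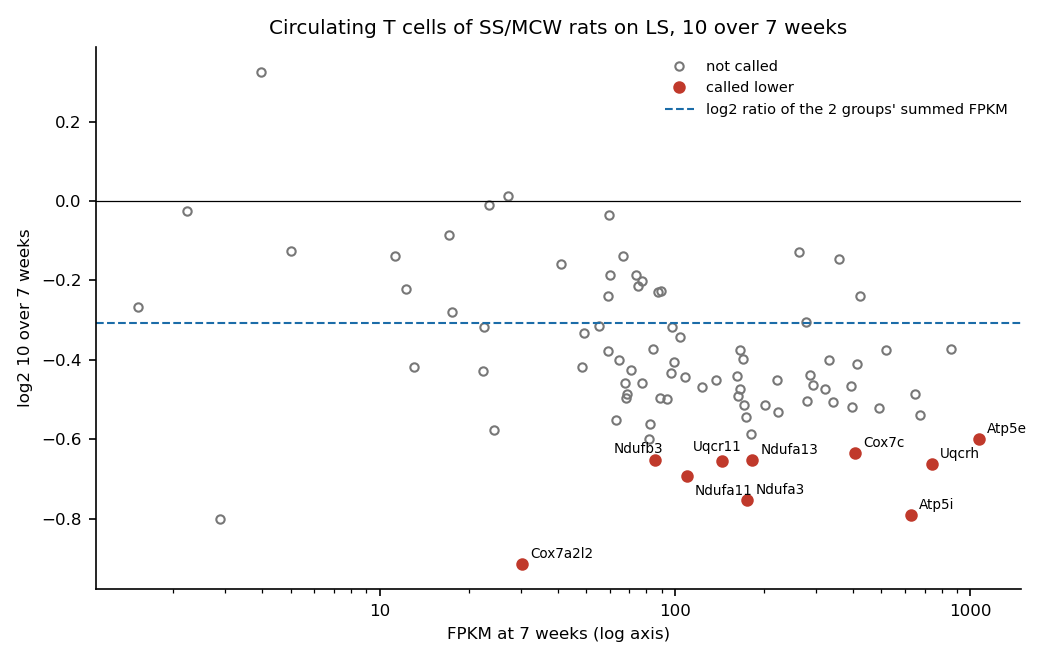
Each point is a member with at least 1 FPKM, placed by its FPKM at 7 weeks (log axis) and its log2 10 over 7 weeks ratio in circulating cells of SS/MCW rats on LS chow. The 10 filled points fell, and the dashed line marks the log2 ratio of the groups' summed FPKM, -0.31.

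Within kidney cells, no member passed the test with salt. In SS/MCW rats the subunits had a median log2 HS over LS ratio of -0.26, from -0.18 for complex IV to -0.45 for complex V, with 0 members called (0.433%) and 1, Cox7a2l2, under an unadjusted p of 0.05 (4.27%). Atp5i had the largest ratio of complex V, 2319 FPKM on HS and 3913 FPKM on LS (q = 1.00), and Cox8b that of complex IV, 0.507 and 8.89 FPKM (q = 1.00). In SS/CRL rats the median was 0.09, with 0 called (5.51%) and 1, the NDUFS5 copy, under the unadjusted p (14.7%). The copy was 68.2 FPKM on HS and 37.2 FPKM on LS (q = 0.134), Cox7a2 698 and 567 FPKM (q = 0.525) and Atp5s 22.5 and 18.2 FPKM (q = 0.931). The SS/MCW and SS/CRL medians thus lay on opposite sides of 0.

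The difference between these salt effects was tested with a normal z. Subunits had a median difference of 0.35 log2 units, SS/CRL minus SS/MCW, and 72 of 74 were higher in SS/CRL, where 54.2% of all gene models were. No member passed the test (0%), and 0 were under an unadjusted p of 0.05 (0.663%), the smallest p being 0.207 for Cox8b. In circulating cells the median difference was -0.12, with 14 of 72 subunits higher in SS/CRL, and 0 members passed (0.0367%) or were under the unadjusted p (0.165%). These shares of all gene models lie far under the p threshold itself. The test thus passed few genes of any kind, and its 0 counts cannot show that the salt effects were alike. With standard errors from the deposited p, 60 gene models passed in kidney and 1 in circulating cells, and 0 members in either. Beside these values, the marker lists of several cell types had different salt effects in the kidneys of the 2 rat types. Median log2 HS over LS ratios in SS/MCW and SS/CRL kidneys were 1.39 and -0.36 for T cells, 1.30 and 0.13 for macrophages, -0.90 and 0.83 for endothelium (0 and 4 of 6 called higher), and -0.26 and 0.53 for the collecting duct. They were -0.61 and -1.26 for the proximal tubule (0 and 7 of 11 called lower), 0.26 and 0.47 for the thick ascending limb and distal tubule, and -3.32 and -2.22 for erythroid cells (2 and 3 of 4 called lower). The part of these cells in the difference was not tested.

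Between rat types in kidney, 0 members were called on LS (1.81%) and 0 were under an unadjusted p of 0.05 (9.67%), with a subunit median of -0.10. On HS the median was 0.24 in favour of SS/CRL, 2 members rose (5.72%) and 8 were under the unadjusted p (13.9%). The 2 were Sdhc, at 549 FPKM in SS/CRL and 326 FPKM in SS/MCW (1.68-fold, q = 0.0435), and Cox7a2l2, at 106 and 41.3 FPKM (2.57-fold, q = 0.0109). At equal totals Cox7a2l2 was called and Sdhc was not (3.82% of all gene models), and at q below 0.01 neither was. Ndufc1 came next, at 436 and 276 FPKM (q = 0.0691), and Atp5g3 had the largest ratio of complex V, 1967 and 1328 FPKM (q = 0.308). The share of members called was below that of all gene models. In the same comparison 13 of 15 T cell markers were called lower in SS/CRL, with a median of -2.09, and all 7 macrophage markers tested were, with a median of -2.32. Proximal tubule markers had a median of 0.86 (3 of 11 called higher), endothelial markers 0.74 (2 of 6) and collecting duct markers 0.31 (2 of 7). The thick ascending limb and distal tubule list had -0.50, with 1 of 7 called in each direction, and the erythroid list 0.79 with no call. The ribosomal protein genes had a median of -0.55. The part of these in the Sdhc result was not tested.

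The tissue ratio itself was compared between rat types with the same z test. On LS the subunits' kidney over circulating ratios differed by a median of -0.03, with 30 of 73 higher in SS/CRL, and 0 members passed (0.0193%) or were under an unadjusted p of 0.05 (0.173%). On HS the median difference was 0.36, with 66 of 71 higher in SS/CRL against 43.5% of all gene models, and again 0 passed (0.0358%) or were under the unadjusted p (1.95%). This comparison uses the same kidney HS groups as those above and adds no separate evidence. In both z tests of the tissue ratio the share of all gene models under the unadjusted p lay under the threshold itself. The 0 counts therefore cannot show that the ratios were alike. With age, 0 kidney members were called (1.07%) and 0 were under the unadjusted p (7.95%). The subunit median was -0.06 as deposited and -0.31 at equal totals, while the summed FPKM differed by 0.25 and the ribosomal protein genes by 0.57. Gene models with at least 5 FPKM in both groups had a median of 0.04. The assembly factor Ndufaf6 had the largest ratio of complex I, 16.8 FPKM at 10 weeks and 10.5 FPKM at 7 weeks (q = 0.887).

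**Figure D5:**
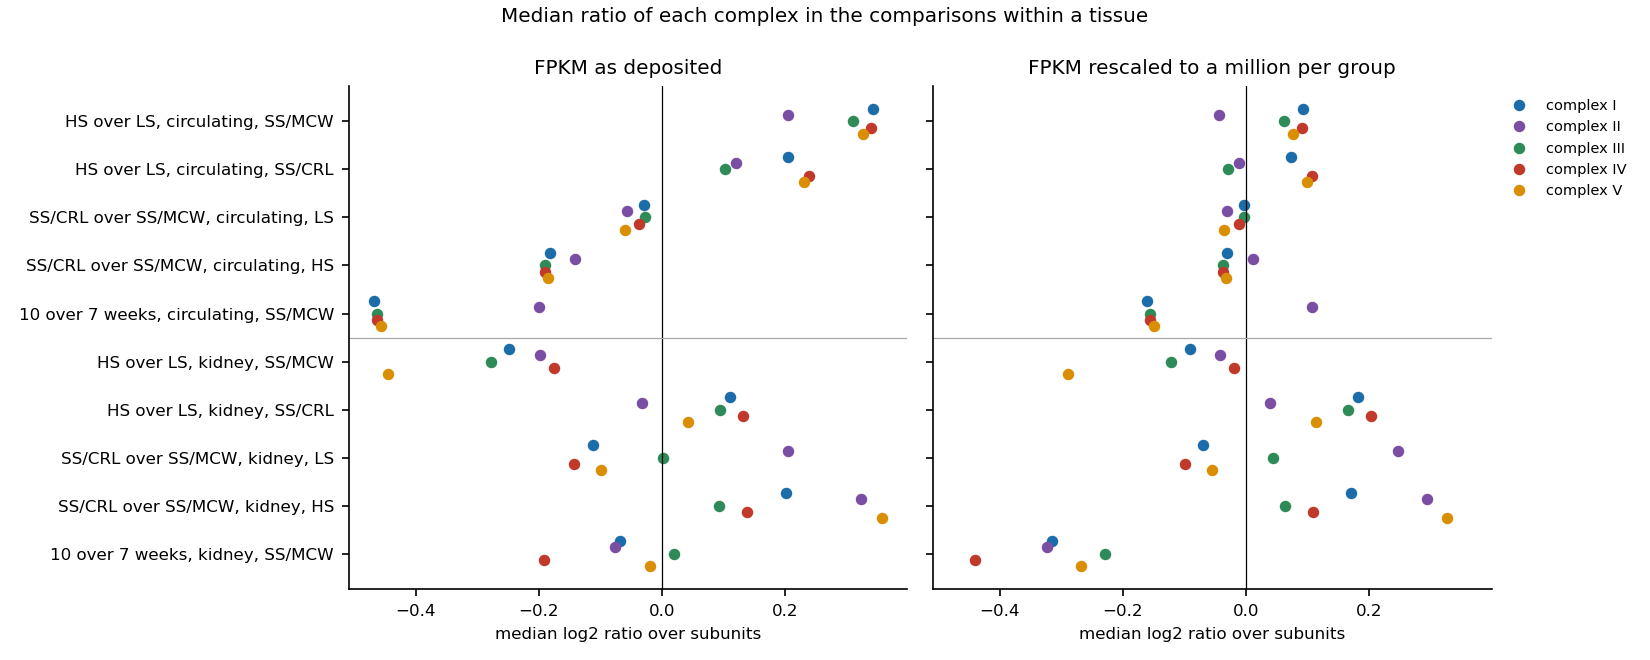
Points give the median log2 ratio over the subunits of each complex in the 10 comparisons within a tissue, with FPKM as deposited (left) and with each group rescaled to the same total (right). The circulating medians of HS over LS in SS/MCW rats (0.21 to 0.34) and of age (-0.47 to -0.20) lie closer to 0 after rescaling, where complex II has the other sign in both, and complex V has the lowest median, -0.45, in the kidney salt comparison of SS/MCW rats.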

How the data were processed

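RNA of circulating and kidney T cells was extracted with TRIzol and sequenced from TruSeq RNA libraries, per the labels' protocols. The submitters' processing notes name cutadapt, Trim Galore 0.2.5, TopHat, TopHat2 2.1.1, Cufflinks 2.2.1, Cuffdiff and the rn5 build, with neither role nor order. FPKM values were deposited by the authors as 1 value per group and gene model in each of 15 pairwise tables, so the libraries behind a value, and their depth, cannot be seen. The p-values and q-values were deposited by the authors in the same tables, as was a test statistic, treated here as a score. The smallest p among the members is 5e-05.

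Members were found by symbol and sorted by role from background knowledge. The members, the gene lists and the roles were chosen with earlier results of these data known. The main result is the deposited q below 0.05 where a test was made. Log2 ratios, medians, sums and shares were computed with Python 3.11.15, pandas 2.3.3, numpy 2.4.6 and scipy 1.17.1. Differences between effects used a normal z with Benjamini-Hochberg adjustment, with standard errors taken from the deposited test statistic. Only this z test and this adjustment were checked on simulated data. The simulated noise was drawn from the same standard errors, so the check does not cover their size. Genes were named by rule: in each complex the member with the highest median kidney FPKM, those with the largest and smallest median ratio among members with at least 5 FPKM in a tissue, and those not called higher in all 5 comparisons; the core subunits, the tissue isoforms and a few other fixed subunits; and, within a tissue, the members called or, for complexes I, IV and V, the one with the largest ratio. Others were named as examples after their values were seen. A gene that the rule names is not reported here. The alternatives were a stricter q, a p from the test statistic, a pseudocount, a minimum FPKM, rescaling of each group to the same total (within a tissue, chosen after seeing the data) and other definitions of the complexes.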

Additional observations from a re-analysis of the deposited data

How the results depend on the processing

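No paired analysis was possible because the tables give only 1 FPKM value per group, so neither pool numbers nor single libraries can enter a fit, and no library could be left out. Rescaling each group to the same total changed the sign of 7 of the 50 complex medians within a tissue, 5 of complex II and 2 of complex III. For age in circulating cells complex II went from -0.20 to 0.11, and for salt in SS/MCW circulating cells from 0.21 to -0.04. No kidney over circulating median of a complex changed direction under the alternatives run, and 12 counts of members fell by a large part. Other counts fell by a smaller part, such as from 84 to 74 in SS/MCW LS rats at 7 weeks with the normal p described next. With a normal p of the test statistic, members called in kidney over circulating cells numbered 45 in SS/MCW LS rats at 10 weeks and 47 in SS/MCW HS rats, and 41 were higher and 0 lower in all 5 comparisons. The same p called 0 for salt in SS/CRL circulating cells, 0 for age in circulating cells and 0 between rat types in HS kidneys. At q below 0.01 these 3 counts were 0, 3 and 0. For the normal p and for this q the share of all gene models called is not given here. Rescaled to the same total, the 3 counts were 1, 0 and 1 (1.93%, 13.8% and 3.82% of all gene models). Cox7a2l2 was the one left for salt and between rat types. The rescaled median log2 kidney over circulating ratio was 2.31 for complex I, 2.36 for complex II, 2.09 for complex III, 2.18 for complex IV and 2.24 for complex V. Complex II had 1.76 with its assembly factors, and 1.76 with all members of its name, and complex III had 1.94 when centred on gene models with at least 5 FPKM. The causes were not tested, except that rescaling by construction takes up the difference in summed FPKM.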
